A study of Mus musculus with 6 samples.

Results

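The Ms4a genes encode small proteins that cross the cell membrane 4 times, and most of the mouse family lies in a single cluster on chromosome 19. The 8 genes described are Ms4a1, Ms4a2, Ms4a4b, Ms4a4c, Ms4a6b, Ms4a6c, Ms4a6d and Ms4a7, out of 21 family genes that the annotation places in the cluster and 21951 protein-coding genes in all. They were chosen by their family name and by where the H3K4me3 peaks of both cell lines lie, so whether a peak lies at their promoters is a description and was not tested. H3K4me3, the trimethylation of lysine 4 on histone H3, was profiled by chromatin immunoprecipitation and sequencing (ChIP-seq) in 2 mouse cell lines for which the labels name no treatment. Scid.adh.2C2 is a T cell progenitor line that was derived from a pro-T tumour of a CB17-Prkdc<scid> mouse. The second is a B cell progenitor line transformed by Abelson virus, called the Abelson line below. Each line is a single transformed line grown in culture, and it stands for its lineage only as far as such a line can. Each was represented by 2 ChIP libraries made with the same H3K4me3 antibody and by 1 input library, and by 1 deposited peak list in which both replicates were combined. No value per replicate and no read depth could be taken from the lists, so no replicate error is given, the depth is unknown, and a gene without a peak may still have carried the mark below the limits of the peak calling.

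H3K4me3 is deposited on the nucleosomes around active and poised transcription start sites, and it is broadest and highest at promoters rich in CpG dinucleotides. Within the family, Ms4a1 encodes CD20, the surface protein of B cells that therapeutic antibodies bind, and Ms4a2 encodes the beta chain of the high-affinity IgE receptor of mast cells and basophils. Ms4a4b is known from T cells, Ms4a4c and Ms4a6b are known from lymphoid and other haematopoietic cells, and Ms4a6c, Ms4a6d and Ms4a7 are best known from monocytes and macrophages. A B cell gene, a mast cell gene, T cell genes and macrophage genes thus lie side by side, and the comparison asked where along this cluster each progenitor line carried the mark.

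The promoters of the 4 neighbouring genes Ms4a4c, Ms4a4b, Ms4a6c and Ms4a6b are shown because the peaks of the T cell line gather around them, and that of Ms4a2 is shown as the mast cell gene of the cluster. Each sequence runs 5′ to 3′ on the strand of the gene over 300 bases, 250 before the RefSeq gene start and 50 from it on, on GRCm38.p6, and capitals mark exact matches to the motifs named below. Ms4a4c lies on the plus strand at chr19:11407411-11407710, Ms4a4b on the plus strand at chr19:11443308-11443607, Ms4a6c on the plus strand at chr19:11469118-11469417, Ms4a6b on the plus strand at chr19:11518309-11518608 and Ms4a2 on the minus strand at chr19:11623670-11623969.
Ms4a4c: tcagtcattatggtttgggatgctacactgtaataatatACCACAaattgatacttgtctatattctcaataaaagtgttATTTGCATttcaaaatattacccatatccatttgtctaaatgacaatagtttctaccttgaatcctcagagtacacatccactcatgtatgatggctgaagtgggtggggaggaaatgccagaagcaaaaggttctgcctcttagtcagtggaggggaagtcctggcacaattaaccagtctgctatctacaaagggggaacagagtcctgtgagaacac
Ms4a4b: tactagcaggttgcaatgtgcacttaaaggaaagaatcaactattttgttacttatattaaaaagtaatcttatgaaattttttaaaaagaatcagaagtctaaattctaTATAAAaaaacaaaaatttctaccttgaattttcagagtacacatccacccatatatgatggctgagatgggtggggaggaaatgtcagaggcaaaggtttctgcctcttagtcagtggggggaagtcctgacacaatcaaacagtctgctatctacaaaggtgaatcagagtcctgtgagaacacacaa
Ms4a6c: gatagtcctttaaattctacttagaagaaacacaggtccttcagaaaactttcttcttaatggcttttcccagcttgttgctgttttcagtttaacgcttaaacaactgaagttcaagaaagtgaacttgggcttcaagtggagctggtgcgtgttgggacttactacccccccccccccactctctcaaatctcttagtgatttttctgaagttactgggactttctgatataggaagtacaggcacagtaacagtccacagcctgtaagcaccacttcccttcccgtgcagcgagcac
Ms4a6b: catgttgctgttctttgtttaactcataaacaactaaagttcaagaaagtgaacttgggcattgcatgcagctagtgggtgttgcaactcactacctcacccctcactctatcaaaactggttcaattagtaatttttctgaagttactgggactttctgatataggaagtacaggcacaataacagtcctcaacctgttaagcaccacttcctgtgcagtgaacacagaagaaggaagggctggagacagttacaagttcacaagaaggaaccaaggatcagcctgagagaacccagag
Ms4a2: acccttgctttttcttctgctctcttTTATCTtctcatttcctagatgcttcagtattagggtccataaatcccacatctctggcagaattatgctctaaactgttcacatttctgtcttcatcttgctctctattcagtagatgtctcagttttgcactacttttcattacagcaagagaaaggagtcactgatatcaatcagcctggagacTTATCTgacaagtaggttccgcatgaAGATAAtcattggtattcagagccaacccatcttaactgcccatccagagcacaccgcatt

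The 200 bases around the summits of the 3 highest peaks of the T cell line in the cluster are shown for the same reason, on the plus strand of GRCm38. The window in an intron of Ms4a6b is chr19:11519226-11519425, the window past the 3′ end of Ms4a4d is chr19:11558891-11559090 and the window in an intron of Ms4a4b is chr19:11447908-11448107.
Ms4a6b intron summit: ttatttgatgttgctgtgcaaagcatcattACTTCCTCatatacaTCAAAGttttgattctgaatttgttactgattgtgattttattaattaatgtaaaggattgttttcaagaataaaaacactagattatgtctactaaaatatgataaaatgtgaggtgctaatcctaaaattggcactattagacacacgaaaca
Ms4a4d end summit: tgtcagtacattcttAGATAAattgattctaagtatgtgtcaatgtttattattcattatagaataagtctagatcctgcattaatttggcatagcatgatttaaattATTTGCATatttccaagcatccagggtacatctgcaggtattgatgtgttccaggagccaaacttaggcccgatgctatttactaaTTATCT
Ms4a4b intron summit: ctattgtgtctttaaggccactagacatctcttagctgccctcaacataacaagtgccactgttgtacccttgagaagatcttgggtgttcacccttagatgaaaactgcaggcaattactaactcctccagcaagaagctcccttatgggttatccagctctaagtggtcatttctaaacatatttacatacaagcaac

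Promoter peaks were counted within 2500 bp of any start site of the GENCODE M21 annotation. In Scid.adh.2C2, 2 of the 8 genes had a promoter peak, Ms4a6b and Ms4a4b. The count was 0 of 8 in the Abelson line. Across all 21 family genes the counts were the same 2 in the T cell line and 0 in the B cell line. Among all protein-coding genes, 45.5% had a promoter peak in Scid.adh.2C2 and 48.2% in the Abelson line. Peaks in Scid.adh.2C2 only were found at 3.28% of all protein-coding genes, peaks in the Abelson line only at 5.96% and peaks in both lines at 42.2%. Ms4a6b and Ms4a4b belonged to the first of these classes. These counts were fixed by how the genes were chosen, and nothing further was read from them.

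Most of the peaks in Scid.adh.2C2 lay between Ms4a4c and Ms4a4d. The cluster with 2500 bp on each side spans chr19:10959793-11643351 on GRCm38, 684 kb with 22 protein-coding genes. It held 12 peaks in Scid.adh.2C2, which covered 11850 bp, and 4 peaks in the Abelson line, which covered 2733 bp. With peaks within 1000 bp of each other counted as 1 region, the numbers were 8 and 3. From the start of Ms4a4c to the end of Ms4a4d is a stretch of 154 kb at chr19:11404770-11558467. In Scid.adh.2C2, 10 peaks with a total width of 10011 bp lay wholly or partly in it, and 0 in the Abelson line. The last of the 10 reached 1177 bp past the end of Ms4a4d and had its summit there. From Ms4a20 to Ms4a4a, 296 kb that hold Ms4a1 and Ms4a7, there were 0 peaks in either line. From Ms4a6d to Ms4a3, 54.2 kb that also hold Ms4a2, there were again 0 in either line. At the opposite end, from Ms4a10 to Ms4a8a, Scid.adh.2C2 had 2 peaks and the Abelson line had 4.

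**Figure D1:**
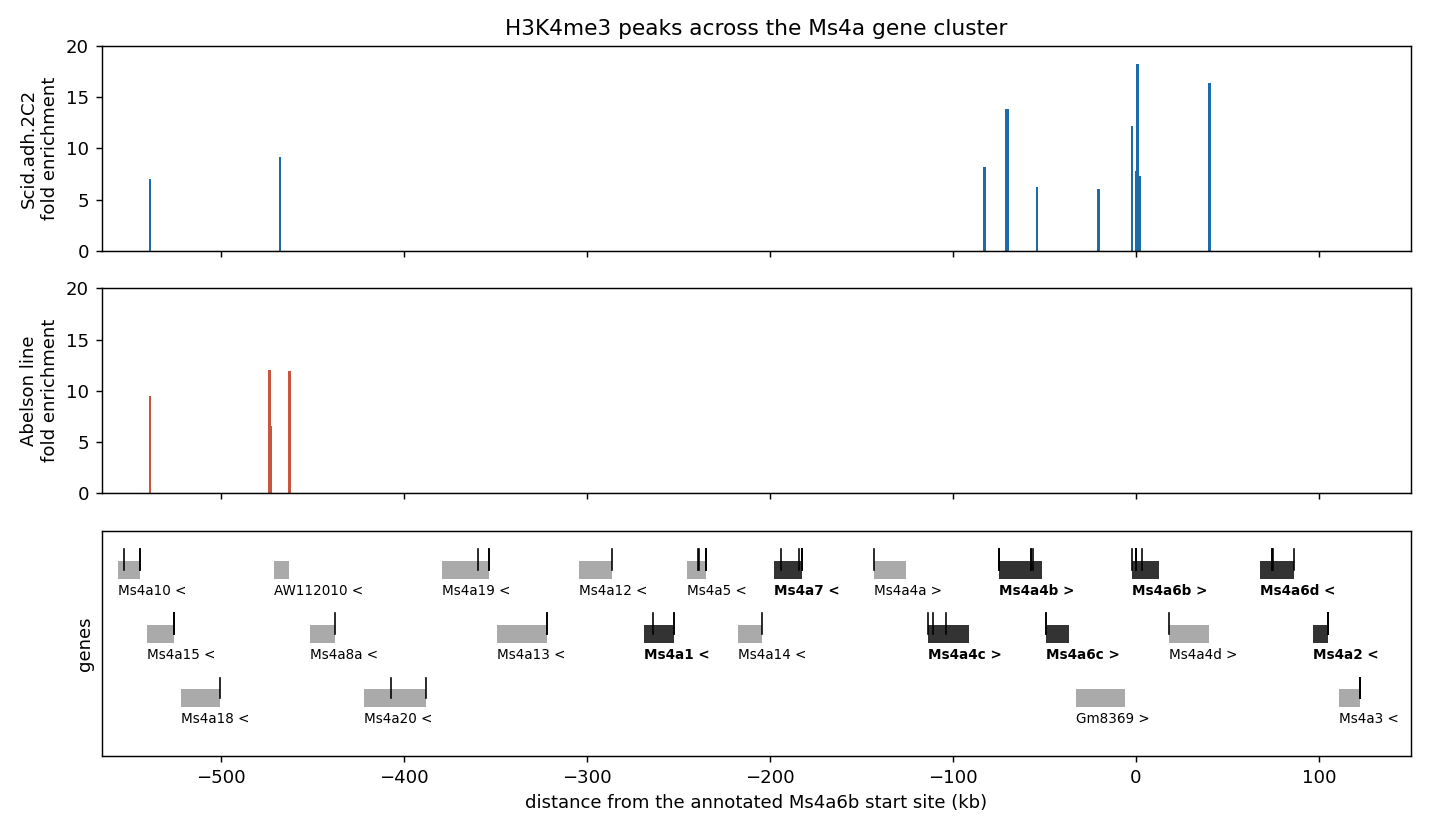
H3K4me3 peaks across the Ms4a cluster in Scid.adh.2C2 (top) and the Abelson line (middle), drawn as bars at their position with fold enrichment over background on the vertical axis, and the genes of the cluster (bottom) by distance in kb from the annotated Ms4a6b start site. Dark boxes are the 8 described genes, vertical ticks are start sites of family genes, and > or < gives the strand. Of the 12 peaks in Scid.adh.2C2, 10 lie wholly or partly between the start of Ms4a4c and the end of Ms4a4d, where the Abelson line has 0.

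Ms4a6b (ENSMUSG00000024677, chr19:11516512-11531256, plus strand) carried the highest peak of the cluster. Its 5 promoter peaks in Scid.adh.2C2 spanned 5083 bp, of which 3703 bp were covered. The first, 1475 bp wide with a fold enrichment of 12.2 over background, contained the most upstream start site, 11516512, and its summit lay 289 bp before that site. An antisense gene, Gm19261, lies at the same place, and since ChIP-seq reads carry no strand of transcription the mark cannot be divided between them. A narrow pair of peaks followed, 194 bp wide at 4.94-fold and 273 bp wide at 7.75-fold, with summits 519 and 176 bp before the start site at 11518559. The peak with the highest fold enrichment, 18.2, was 1156 bp wide and had its summit 767 bp past that site, with a −log10 p of 123. The last peak, 605 bp wide at 7.32-fold, lay further into the gene.

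The start site at 11518559 fell in a gap of 260 bp between the third and the fourth peak. Thus 4 of the gene's 5 annotated start sites lay in no peak, and 3 of these lay within this gap, 19 bp or more from the edge of the peak before it. All 5 start sites had at least 2 peaks within 2500 bp. So many peaks were uncommon, and 5 or more were found at the promoters of 21 of 9980 marked protein-coding genes, or 0.21%. The median marked gene had 1 peak. The gaps between the 5 Ms4a6b peaks were 856, 84, 260 and 180 bp. Joined across gaps of up to 1000 bp, they form 1 region. The 5 start sites of Ms4a6b also gave it a wider search window than a gene with 1 start site. The fold enrichment of 18.2 placed the highest Ms4a6b peak at rank 8636 of 15513 peaks. It was below the median of all peaks in the list, 20.3, and below the median of the highest promoter peak of marked genes, 27.1. Among genes marked in Scid.adh.2C2 only, the 3 with the most similar percentile of highest promoter fold, out of 719 compared, were AU041133 at 18.0, Spdya at 18.3 and Cracr2a at 18.0. This likeness rests on a single value per gene in 1 line.

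Ms4a4b (ENSMUSG00000056290, chr19:11443553-11467055, plus strand) was marked by a weaker and less certain peak. The peak was 798 bp wide with a fold enrichment of 6.21, a −log10 p of 14.8 and rank 14702 of 15513. Its IDR score, which measures how well a peak was reproduced between replicates on a scale that ends at 1000, was 757, the lowest of the 12 peaks, and the other 11 were at 1000. It lay in the last part of the gene, with its near edge 1337 bp past the start site 11462489 of a transcript that keeps an intron. No peak lay within 2500 bp of the 3 start sites at the 5′ end of the gene, 11443553, 11443558 and 11443573. With start sites of protein-coding transcripts alone, or with a window of 1000 bp, Ms4a4b had no promoter peak. A stronger peak lay outside the window. It was 1850 bp wide at 13.8-fold, with a −log10 p of 48.3, and it began 3613 bp past the start site at 11443573 and had its summit 4435 bp past it, in an intron. On the other side, a peak of 1122 bp at 8.17-fold had its summit 7530 bp before the gene, near the pseudogene Gm5511.

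The shares of sequence that are unique on chromosome 19 bear on these values, since reads from near-identical copies cannot be placed with certainty. Of all 32-base stretches in the peak, 72% occurred once on chromosome 19 for the peak in the last part of Ms4a4b and 74.9% for the intron peak of Ms4a4b, against 96.6% for the highest peak of Ms4a6b. Over the 12 peaks the share ran from 72 to 100% and was 90% or more for 7. Copies on other chromosomes were not counted, and stretches of 32 bases are shorter than the reads. A high share therefore does not show that reads were placed uniquely in the genome. The summit windows of the peak in the last part of Ms4a4b and of the peak past the 3′ end of Ms4a4d held related sequence. Related sequence was also shared by the windows of the Ms4a4b intron peak and of a peak in an intron of Gm8369. The part of such copies in the fold values was not tested.

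**Figure D2:**
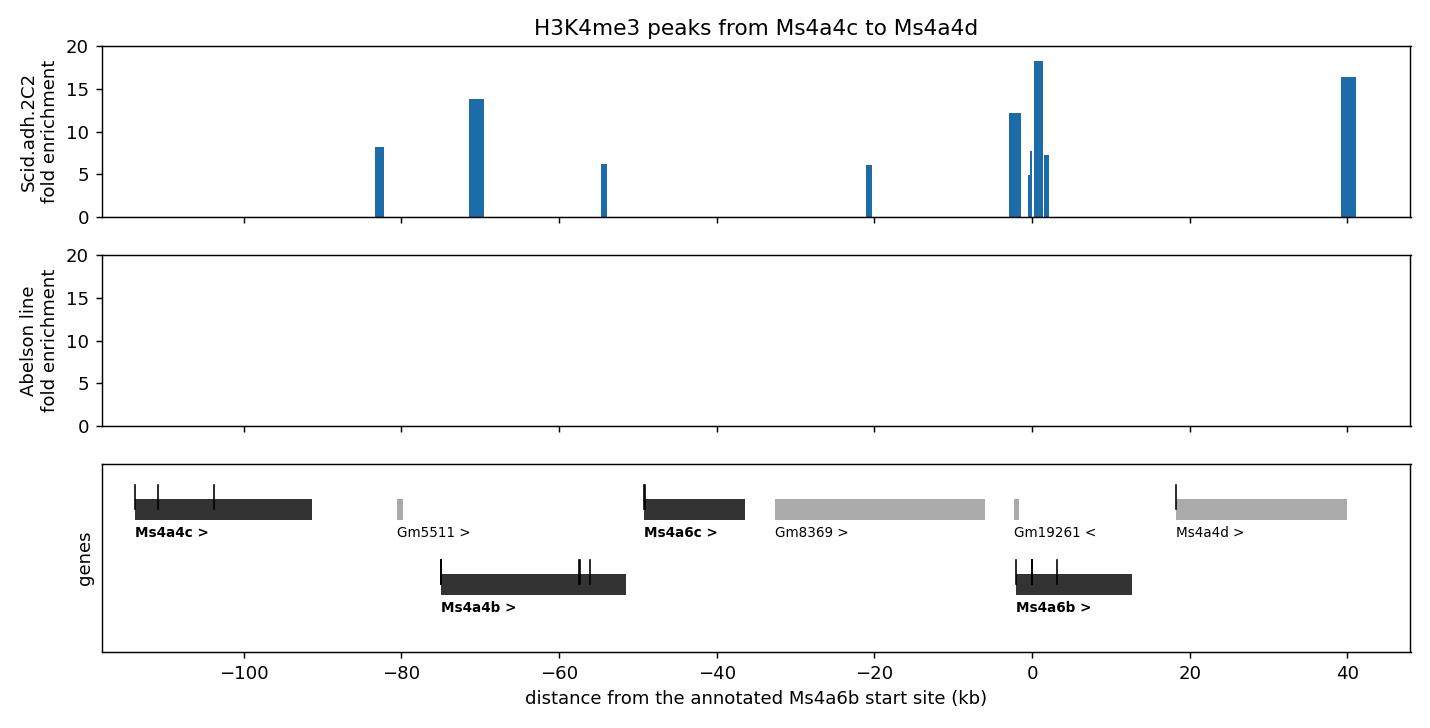
Fold enrichment of the H3K4me3 peaks from Ms4a4c to Ms4a4d in Scid.adh.2C2 (top) and the Abelson line (middle), with genes and start sites (ticks) below, by distance in kb from the annotated Ms4a6b start site. Bars have the width of each peak, down to a set minimum. The Ms4a6b peaks of 194 and 273 bp are drawn at this minimum, so the gap between them is hidden. Scid.adh.2C2 has 5 peaks around the start of Ms4a6b, up to 18.2-fold, and the Abelson line has 0 in the whole stretch.

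Ms4a4c (ENSMUSG00000024675, chr19:11404770-11427246, plus strand) and Ms4a6c (ENSMUSG00000079419, chr19:11469366-11482192, plus strand) lie on either side of Ms4a4b and had no promoter peak in either line. The nearest peak in Scid.adh.2C2 was 20384 bp from a start site of Ms4a4c and 4743 bp from one of Ms4a6c. The latter is the same 6.21-fold peak that was counted for Ms4a4b, so at 5000 bp it would be counted for both genes, against 47.3% of all protein-coding genes with a peak at that distance in this line. The nearest peaks in the Abelson line were 348557 bp from Ms4a4c, 307244 bp from Ms4a4b, 300308 bp from Ms4a6c and 248062 bp from Ms4a6b.

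The 4 other genes were far from any peak in both lines. Ms4a1 (ENSMUSG00000024673, chr19:11249675-11266241, minus strand), the CD20 gene, had its nearest peak at 168984 bp in Scid.adh.2C2 and at 198471 bp in the Abelson line, the B cell progenitor line. For Ms4a7 (ENSMUSG00000024672, chr19:11321039-11336146, minus strand) the distances were 99079 and 268415 bp. For Ms4a6d (ENSMUSG00000024679, chr19:11586604-11604849, minus strand) they were 33371 and 164884 bp, and for Ms4a2 (ENSMUSG00000024680, chr19:11615523-11623719, minus strand) 63999 and 146014 bp. All 8 genes were closer to a peak in the T cell line than in the B cell line. These distances are not separate observations, since all 8 genes lie in the same stretch without a peak in the Abelson line. Peak positions also entered the choice of genes. No share over all protein-coding genes is given beside this count, and nothing further was read from it.

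The genes lay within long stretches without a peak. In Scid.adh.2C2 the longest lay at chr19:11051154-11435224, 384 kb with 11 family genes inside, Ms4a1 and Ms4a7 among them. That of the Abelson line lay at chr19:11056214-11769732, 714 kb with 18 family genes and 23 protein-coding genes inside, and it held all 8 described genes. Stretches of this length were not rare. Of 15492 gaps between neighbouring peaks in the T cell list 1356 were longer, with a median gap of 31.7 kb, and of 19583 in the B cell list 803 were longer, with a median of 21.2 kb.

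**Figure D3:**
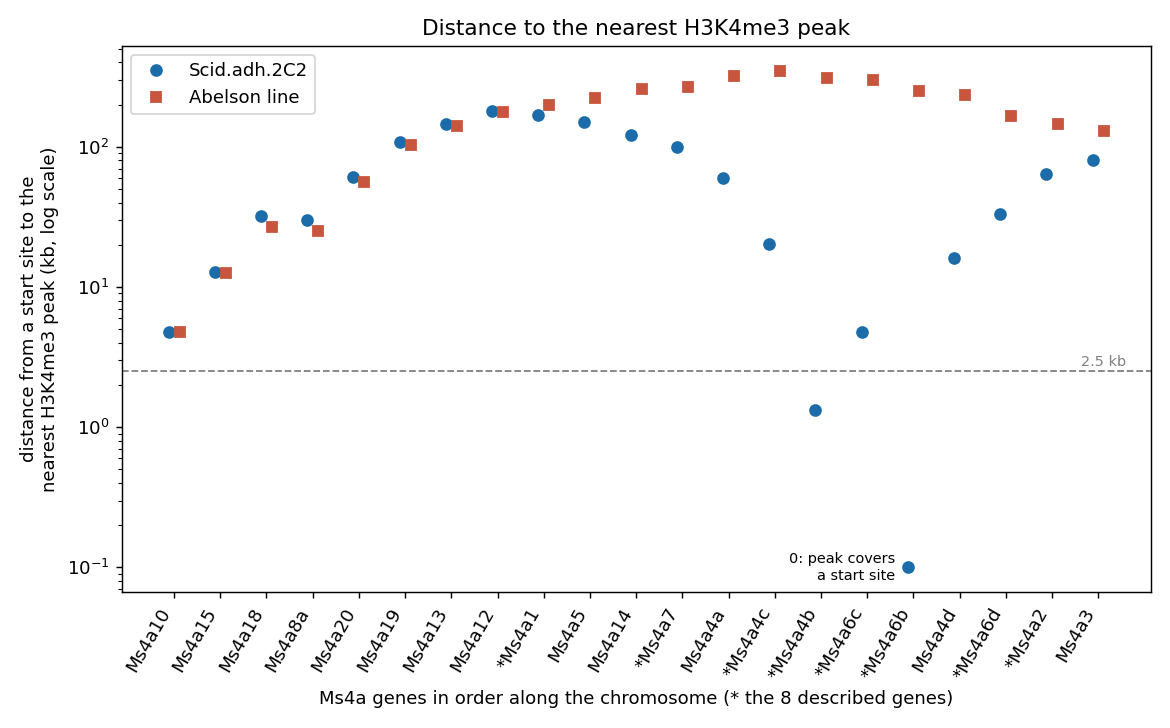
Distance in kb (log scale) from any start site of each of the 21 Ms4a genes, in order along chromosome 19, to the nearest H3K4me3 peak in Scid.adh.2C2 (circles) and the Abelson line (squares). The dashed line is the 2500 bp promoter window, and the distance of 0 for Ms4a6b in Scid.adh.2C2 is drawn at the foot of the axis. Ms4a4b and Ms4a6b in Scid.adh.2C2 are the only points below the line.

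The 13 other family genes had no promoter peak in either line. Ms4a4d, next to Ms4a6b, had its start site 16060 bp from the nearest peak in Scid.adh.2C2, but the second-highest peak of the cluster lay at its other end. This peak was 1867 bp wide at 16.4-fold, with a −log10 p of 91.1 and rank 9313 of 15513. It covered the last 690 bp of Ms4a4d and 1177 bp past it, with the summit 524 bp after the annotated end of the gene. The nearest start site of any gene from that summit was that of the pseudogene Gm10212, 10458 bp away. One further peak of the T cell line, 671 bp at 6.04-fold, lay in an intron of Gm8369, between Ms4a6c and Ms4a6b. In all, 6 of the 12 peaks in Scid.adh.2C2 were at Ms4a promoters, 5 of them the closely spaced peaks of Ms4a6b, and 4 were at no annotated promoter.

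The peaks of the Abelson line were confined to the end of the cluster near Ms4a10, Ms4a15 and the long non-coding RNA gene AW112010. A peak within Ms4a15 was the single one shared by both lines, 1 of 12 peaks or 8.33% in Scid.adh.2C2 and 1 of 4 or 25% in the Abelson line. It had a fold enrichment of 7.04 in Scid.adh.2C2 and 9.50 in the Abelson line, with summits 323 bp apart, and an IDR score of 570 in the Abelson line. It lay 13.1 kb into Ms4a15 and 4756 and 4737 bp from the start of Ms4a10, outside the promoter window of either. At AW112010 each line had a peak over a start site, but not over the same one. The 9.19-fold peak of Scid.adh.2C2 contained the start site at 11050566, and the 11.9-fold peak of the Abelson line contained that at 11055808, 5.24 kb away, with 4416 bp between the peaks. Of the 32-base stretches, 88.6% were unique on the chromosome for the peak of Scid.adh.2C2 and 67.7% for that of the Abelson line. The 200-base windows around these summits share a long run of near-identical sequence. Whether the placing of reads between these copies set which start site carried the peak was not tested. The remaining pair of the Abelson line peaks, at 12-fold and 6.59-fold, lay between annotated genes. Their 32-base stretches were 100% unique on chromosome 19, but copies on other chromosomes were not searched.

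Compared with their lists, the peaks of the cluster were low and narrow. In Scid.adh.2C2 their fold enrichment ran from 4.94 to 18.2 with a median of 7.96, against 20.3 over all 15513 peaks, and all 12 were below that median. In the Abelson line it ran from 6.59 to 12 with a median of 10.7, against 15.4 over 19604 peaks, and all 4 were below. Median widths were 919.5 bp against 1542 bp in the T cell line, where 10 of 12 peaks were narrower than the list's median, and 540.5 bp against 1590.5 bp in the B cell line, where all 4 were. The T cell line widths count the 5 Ms4a6b peaks separately, though these lay within 5083 bp with gaps of 84 to 856 bp. Fold values were read only within a list, since the background and depth of the 2 lists may differ.

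**Figure D4:**
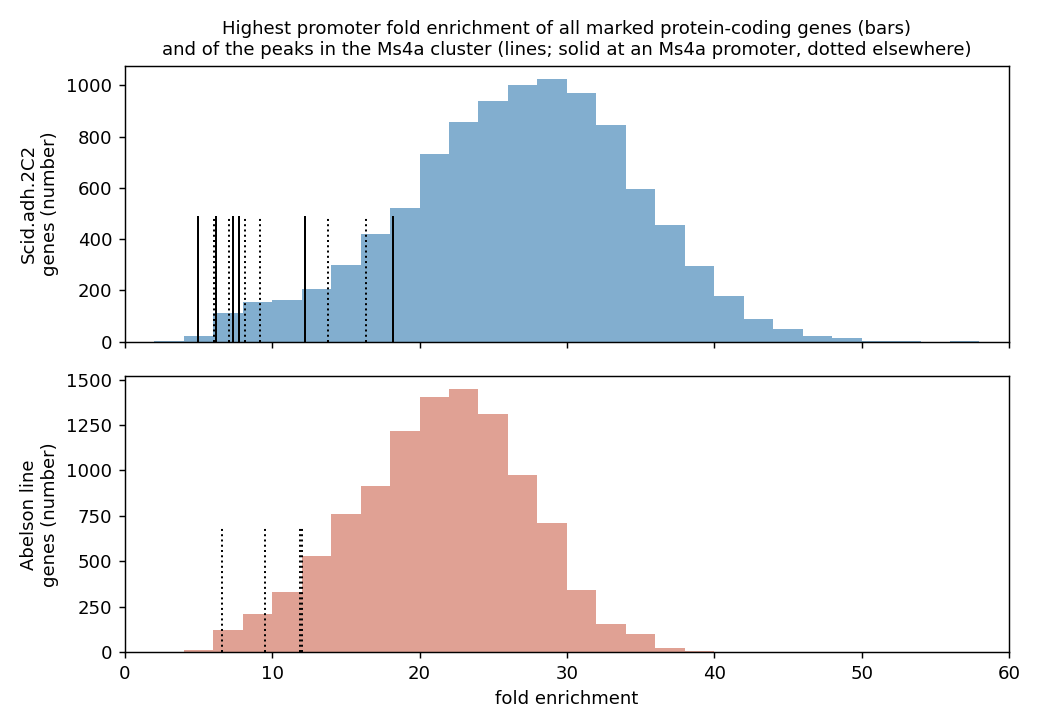
Number of protein-coding genes by the fold enrichment of their highest promoter peak (bars, in steps of 2) in Scid.adh.2C2 (top) and the Abelson line (bottom). Vertical lines are the peaks within the Ms4a cluster, solid at an Ms4a promoter and dotted elsewhere. The lines run from 4.94 to 18.2 in Scid.adh.2C2 and from 6.59 to 12 in the Abelson line, on the low side of both distributions.

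The CpG content of the promoters, which the choice of genes did not use, was low throughout the family. RefSeq promoters of 300 bases were matched for 16523 protein-coding genes, 18 of the 21 family genes and 6 of the 8 described. Ms4a4c, Ms4a4b and Ms4a6b had 0 CpG dinucleotides in the sequences printed above, Ms4a2 had 2 and Ms4a6c had 4. Ms4a7 has a pair of promoters in the table, with 1 and 6. The family ranged from 0 to 9 with a median of 2, against a median of 15 over all matched genes. In the family 10 of 18 genes, or 55.6%, had 2 or fewer, against 17.0% of all genes.

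Across all genes the share with a promoter peak followed the CpG count. In Scid.adh.2C2 it was 2.54% of the 787 genes with 0 CpG, 5.71% with 1 to 2, 14.7% with 3 to 5, 30.3% with 6 to 10 and 70.2% with 11 or more. The shares in the Abelson line were 2.92, 7.49, 18.7, 34.2 and 72.8%. Ms4a6b and Ms4a4b were among 20 genes with no CpG in their RefSeq promoter that had a promoter peak in Scid.adh.2C2. For Ms4a4b the promoter without CpG and the peak are at different sites, since its RefSeq promoter overlapped no peak and the counted peak had its summit 20.6 kb past the start site at 11443573. Of these 20, 4 had no peak in the Abelson line, and they were Ms4a4b, Ms4a6b, Lcp2, which encodes the T cell receptor adaptor SLP-76, and Mgst2. The cluster's peaks themselves had a median of 4.39 CpG per kb in Scid.adh.2C2 and 20 in the Abelson line.

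**Figure D5:**
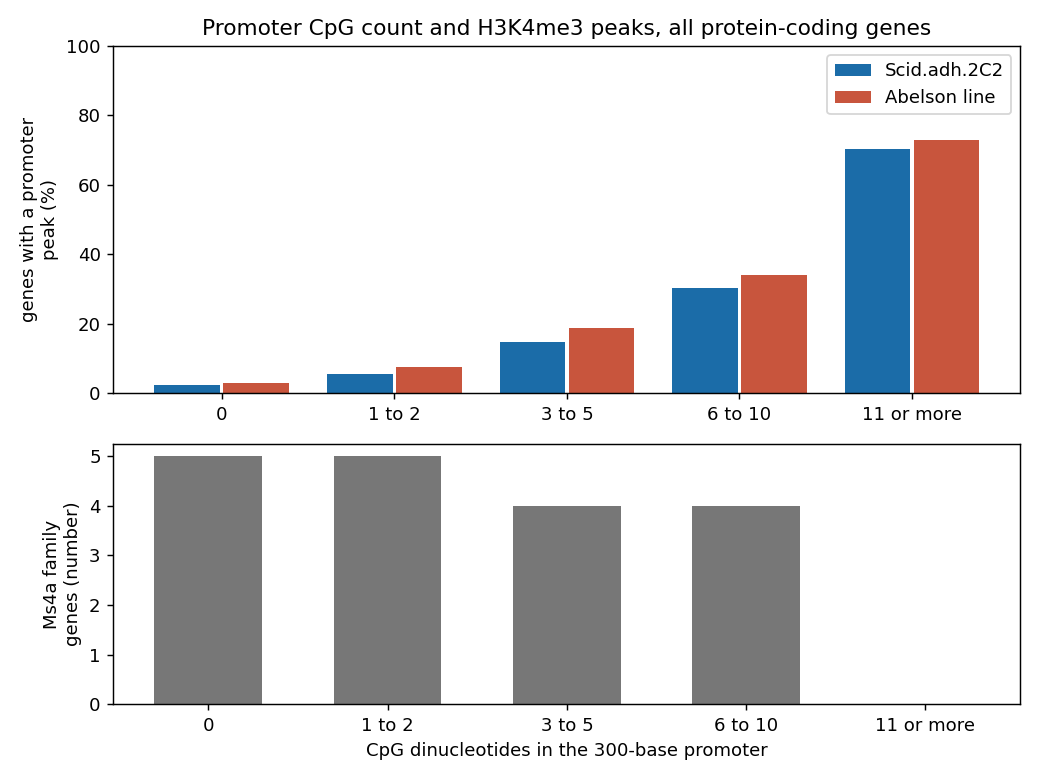
Share of all protein-coding genes with a promoter peak in Scid.adh.2C2 and the Abelson line (top, %) and number of Ms4a family genes (bottom) by the number of CpG dinucleotides in the 300-base RefSeq promoter. The share rises from 2.54 to 70.2% in Scid.adh.2C2, and all 18 matched family genes have fewer than 11.

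The printed promoters of Ms4a4c and Ms4a4b were the most alike of 170 pairs of family promoters. Ms4a4c and Ms4a4b were identical at 230 of 319 aligned positions, or 72.1%, against a median of 46.4% over all pairs. Neither of these 2 sequences overlapped a peak in either line. Ms4a6c and Ms4a6b came next, at 192 of 375 positions or 51.2%, but other pairs were close to this, such as Ms4a4c and Ms4a6b at 50.7% and Ms4a14 and Ms4a4c at 50.3%.

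Exact matches to 8 motifs were searched on both strands. They were CCCNNGGG for the B cell factor EBF, GAGGAAGT for PU.1, TGTGGT for RUNX, AGATAA for GATA, ATGCAAAT for the octamer that POU factors bind, CAGGTG for the E-box, CTTTGA for TCF/LEF and TATAAA for the TATA box. No 2 matches overlapped within the family promoters. Ms4a2 held 3 matches to AGATAA, at −224, −37 and −11 bp from the gene start, and 11.2% of all 32851 promoters held at least 1. Ms4a4c held TGTGGT at −211 bp, found in 16.8% of all promoters, and ATGCAAAT at −170 bp, found in 1.74%. Ms4a4b held only TATAAA, at −140 bp, found in 13.6%. Both promoters of Ms4a7 held CTTTGA, found in 16.0%, and Ms4a6b and Ms4a6c held none of the 8. CCCNNGGG, found in 13.7% of all promoters, and GAGGAAGT, found in 3.20%, were in 0 of the 19 family promoters. Of the summit windows, that of the highest Ms4a6b peak held GAGGAAGT on the minus strand at base 31 and CTTTGA at base 46, that past Ms4a4d held AGATAA at bases 16 and 195 and ATGCAAAT at base 109, and that of the Ms4a4b intron held none. Such matches describe the letters of these windows and were not tested for binding. For the summit windows no share over other windows is given, so how common these matches are is not known.

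Markers of other cell types gave the setting for these values. In Scid.adh.2C2 all 9 T cell progenitor markers had a promoter peak, among them Cd3e at 41.5-fold and Gata3 at 39.9-fold, and 2 of 8 B cell progenitor markers did, Vpreb1 and Rag1. In the Abelson line the counts were 3 of 9 and 7 of 8, with Ebf1 at 26.1-fold and Pax5 at 21.4-fold. Of these 7, Igll1 was counted through a peak 1628 bp from its start site. Each line thus had more markers of its labelled lineage marked than of the other. Against the labels, Vpreb1 at 29.9-fold and Rag1 at 16.5-fold were marked in the T cell line, Lck and Cd3d at 16.8-fold and Tcf7 at 15.2-fold were marked in the B cell line, and Rag1 had no peak in the latter. The Cd3d peak in the B cell line was 3879 bp from the gene's 5′ start site and was counted through another start site. All 4 genes of a B cell surface list, which shares members with the progenitor list, Cd22, Cd40, Cd79a and Cd79b, had a promoter peak in the Abelson line, whereas the CD20 gene Ms4a1 had none. Of 9 monocyte and macrophage markers, 1 had a peak in each line, Cd68, and Csf1r, Itgam, Adgre1 and Lyz2 had none in either. The Cd68 peaks covered no start site, with edges 2331 bp from the nearest in Scid.adh.2C2 and 1368 bp in the Abelson line. Of 9 mast cell and basophil markers, Hdc at 15.4-fold and Cpa3 at 16.8-fold were marked in Scid.adh.2C2 and 0 in the Abelson line. The Hdc peak was 21271 bp from the gene's 5′ start site and was counted through another start site. Of 7 NK cell markers, Gzma was marked in Scid.adh.2C2 and 0 in the Abelson line. Of the partners of Ms4a2 in the IgE receptor, the gamma chain gene Fcer1g was marked at 6.4-fold in Scid.adh.2C2 and at 11.9-fold in the Abelson line, the alpha chain gene Fcer1a in neither, and the kinase genes Lyn and Syk in the Abelson line only. The Fcer1g peaks covered no start site, with edges 1703 bp from the nearest in Scid.adh.2C2 and 2370 bp in the Abelson line.

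Of the 5 nearest protein-coding genes on each side of the cluster, 4 of 10 had a promoter peak in both lines, close to the 42.2% of all protein-coding genes, and 6 had one in neither. Those marked were Tmem109 at 21.5-fold in Scid.adh.2C2 and 27.7-fold in the Abelson line, the splicing factor gene Prpf19 at 34.1 and 23.2, Ccdc86 at 23.5 and 23.3, and the mitochondrial ribosomal protein gene Mrpl16 at 31.0 and 25.0. Each of these values was above its list's median, and each was higher than any peak of the Ms4a cluster in the same line. The unmarked ones were Zp1, Ptgdr2, Oosp1, Oosp2, Oosp3 and Gif.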

How the data were processed

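Libraries were grouped by the cell line in the sample labels. The authors trimmed reads with Trim Galore 0.6.7, mapped them to mm10 (GRCm38) with Bowtie2 2.4.4, called narrow peaks against input with MACS2 2.2.7.1 at a q-value of 0.05, and kept peaks reproduced at an irreproducible discovery rate (IDR) of 0.05. Each deposited list combines both replicates and gives an IDR score, a fold enrichment ratio and a −log10 p-value per peak, used unchanged within each list; its q-values were not used.

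Peaks overlapping a window of 2500 bp around any GENCODE M21 start site by 1 bp or more were assigned to that gene, with Python 3.11.15. RefSeq promoters were matched by symbol and aligned with Biopython 1.88. The assignment was checked on simulated peaks planted at 200 genes, of which 200 were found. The 8 genes and all lists were chosen with earlier results of these data known. Named genes were the 8 genes, the other family genes, the 5 nearest protein-coding genes on each side, the 3 genes most like Ms4a6b, and the marker lists, of which 1 gene is not reported here. Non-coding genes and pseudogenes beside peaks, Gm8369, Lcp2 and Mgst2 were named after their values were seen. Alternatives were other windows and start sites, equal list lengths, stricter fold or IDR limits, and peaks within 1000 bp counted as 1 region.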

Additional observations from a re-analysis of the deposited data

How the results depend on the processing

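The number of the 8 genes marked in Scid.adh.2C2, and of those marked in that line only, fell from 2 to 1 with a promoter window of 1000 bp, with the most upstream start site alone, with peaks of at least 10-fold enrichment, with peaks at an IDR score of 1000, and with start sites of protein-coding transcripts alone, an alternative added after the data were seen. In each of these Ms4a6b kept its peak and Ms4a4b lost it. Over all family genes the count in Scid.adh.2C2 fell from 2 to 1 under the first 4 of these settings and rose to 4 with a window of 5000 bp, at which Ms4a10 and Ms4a6c were added and the highest fold of Ms4a4b was 13.8. In the Abelson line the family count rose from 0 to 1 at 5000 bp, through Ms4a10. The number of cluster peaks fell from 12 to 4 in Scid.adh.2C2 at 10-fold or more. In the Abelson line it fell from 4 to 2 with equal list lengths, at 10-fold or more and at an IDR score of 1000, and under each of these the shared peaks fell from 1 to 0 in both lines. The 2.54% of promoters without CpG marked in Scid.adh.2C2 became 7.37% for promoters with an observed to expected CpG ratio under 0.2. The other 44 recomputed counts and shares and 106 recomputed values of single genes stayed within 1.5 times of the value given. Most of these single-gene values were 0 before and after. A value of 0 could change only with the window of 5000 bp, since the other settings can only remove peaks or start sites. Equal list lengths also left the shorter list, that of Scid.adh.2C2, as it was. These unchanged values are therefore no measure of stability.

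No paired analysis was possible because each list combines both replicates, and no replicate was left out in turn for the same reason. The depth behind each list is unknown, so a missing peak does not show that the mark was absent.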
